A study of Homo sapiens with 6 samples.

Results

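Cohesin and condensin are ring-shaped protein complexes that shape chromosomes, and 10 genes encoding their subunits were followed here by symbol in a table of 15794 human genes. The cohesin genes were SMC1A, SMC3, RAD21, STAG1 and STAG2, and the condensin genes were SMC2, SMC4, NCAPD2, NCAPG and NCAPH. All 10 were found in the table. Polyadenylated RNA had been sequenced from 6 samples of eHAP cells, an engineered haploid human line, all expressing Cas9. The first group of 3 biological replicates received sgRNAs against TFDP1. The second group of 3 were controls, titled NC and labelled wild-type with no knockout gene. Both groups came through the same puromycin selection (24 to 72 h after transfection), were collected on day 5, and had 10000 Drosophila S2 cells added per 500000 eHAP cells as a spike-in. The knockout samples were pools of transfected, selected cells, and the sources used here do not give the share of cells with an edited allele. TFDP1 encodes DP1, the partner that most E2F transcription factors need to bind DNA.

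Both complexes are built on a pair of SMC ATPases, long coiled-coil proteins that join at a hinge. In cohesin, SMC1A and SMC3 are closed by the kleisin RAD21 and carry either STAG1 or STAG2, and the ring holds sister chromatids together from S phase until anaphase and extrudes chromatin loops in interphase. In condensin, SMC2 and SMC4 are closed by the kleisin NCAPH and carry the HEAT-repeat subunits NCAPD2 and NCAPG, which make up condensin I, and the complex compacts chromosomes in mitosis. A second form, condensin II, uses the same SMC pair with NCAPH2, NCAPD3 and NCAPG2.

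Each gene has 1 log2 fold change, 1 level averaged over the samples in CPM (read counts scaled to the library total), 1 likelihood ratio and its p, and these values come from the authors' deposited table. Values of single replicates were not used here, so neither the spread between samples nor the overlap of the groups could be shown. The authors' test, edgeR's likelihood ratio test with their adjusted p, is the measure of replicate error. Which rows that adjustment covered was not established. For SMC1A it gave 9.67e-20, and Benjamini-Hochberg adjustment of the same test over the 15794 genes in hand gave 8.17e-20. The table does not name the numerator of its fold changes. TFDP1 itself was at 226 CPM with a log2 fold change of 1.17, or 2.25-fold (approximate 95% interval 2.15 to 2.35). A Cas9 cut need not lower the transcript that it hits, so this value does not say which group was higher. A positive value below therefore means higher on the side where TFDP1 transcript was higher, and whether that side is the TFDP1-guide cells or the controls cannot be told from these values. Approximate 95% intervals rest on a standard error taken from the fold change and the likelihood ratio of each gene, as a Wald test would relate them.

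All 10 subunit genes were positive at the authors' adjusted p under 0.05, and 0 were negative. Over all genes 17.3% were called positive and 22.2% negative, and among the 2950 genes whose level lay in the subunits' range, 85.1 to 593 CPM, the shares were 27.0% and 28.6%. The median log2 fold change was 0.54 over the 10 subunits (1.45-fold), -0.03 over all genes and -0.01 over the genes of that level range. The smallest change, that of NCAPH, was matched or exceeded on the positive side by 6.88% of the genes of that range. The 5 cohesin genes had a median of 0.50 and the 5 condensin genes one of 0.58, and their ranges overlapped. In bulk RNA, fewer cells that express a transcript and less of it per cell cannot be told apart.

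**Figure D1:**
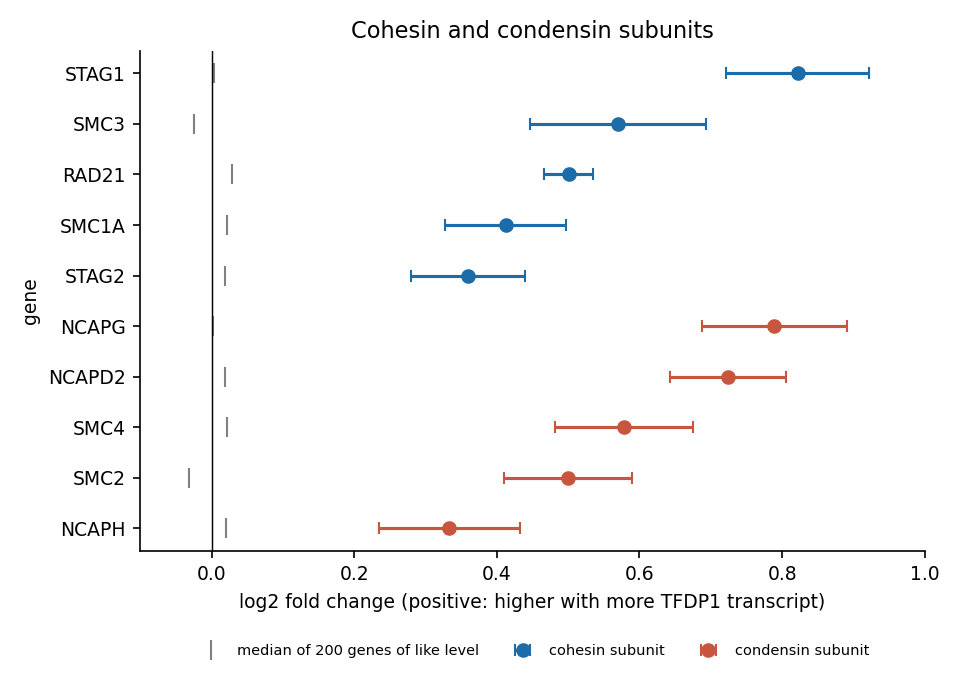
Log2 fold change of each subunit gene (horizontal axis, log2 units, positive meaning higher with more TFDP1 transcript), with bars for the approximate 95% interval and a grey tick for the median of the 200 genes nearest in level. All 10 points lie between 0.33 and 0.82, right of 0 and of their ticks.

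The kleisin and SMC genes of cohesin lay close together. RAD21, whose product closes the ring and is cut by separase at anaphase, averaged 373 CPM over the samples and had a log2 fold change of 0.50 (1.41-fold, approximate interval 1.38 to 1.45, adjusted p = 4.42e-180 by edgeR's likelihood ratio test). The very small p of RAD21 goes with an unusually small standard error of 0.017, against a median of 0.043 among the 200 genes nearest in level, of which 4.50% had a smaller one. SMC3, the ATPase acetylated when cohesion is established, averaged 150 CPM and had a log2 fold change of 0.57 (1.48-fold, 1.36 to 1.62, adjusted p = 5.22e-18). SMC1A, its X-linked partner and the subunit with the most reads at 593 CPM, had one of 0.41 (1.33-fold, 1.25 to 1.41, adjusted p = 9.67e-20). Among these 3 genes only the interval of the difference between SMC3 and SMC1A lay above 0, with a lower end of 0.0078.

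STAG1 and STAG2, the alternative subunits that bind RAD21, stood at opposite ends of the cohesin genes. STAG1 (chromosome 3, 136336233 to 136752403 of GRCh38, minus strand) averaged 97.9 CPM and had the largest log2 fold change of the 10 subunits, 0.82 (1.77-fold, 1.65 to 1.90, adjusted p = 6.68e-56 by edgeR's likelihood ratio test). STAG2 (chromosome X, 123960212 to 124422664, plus strand), often mutated in cancers, averaged 418 CPM and had a log2 fold change of 0.36 (1.28-fold, 1.21 to 1.36, adjusted p = 3.20e-17). The difference of 0.46 log2 units (0.33 to 0.59) means that the ratio of STAG1 to STAG2 transcript was 1.38 times as high (1.26 to 1.51) on the side with more TFDP1 transcript. A ratio of 2 genes in the same libraries does not depend on how the libraries were scaled, although its interval takes the errors of the genes as independent, which was not tested. Per kilobase of exon STAG2 remained the more abundant of the pair, at 51.1 against 12.5 CPM per kb. Of the exon bases of STAG1, 21.2% are shared with PCCB on the other strand (68.6 CPM, log2 fold change -0.26). Whether reads were counted by strand is not given, so the value of STAG1 is uncertain. How far shared reads entered it was not tested.

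Among the condensin genes, in the authors' values, the HEAT-repeat subunits had the largest changes and the kleisin the smallest. The place of the kleisin did not hold after the trend removal described below. NCAPG (chromosome 4, 17810902 to 17844862 of GRCh38, plus strand) averaged 128 CPM with a log2 fold change of 0.79 (1.73-fold, 1.61 to 1.85, adjusted p = 1.39e-49 by edgeR's likelihood ratio test). NCAPD2 (chromosome 12, 6493356 to 6531955, plus strand) averaged 330 CPM with one of 0.72 (1.65-fold, 1.56 to 1.75, adjusted p = 1.45e-65). The 2 differed by 0.06, with an interval from -0.07 to 0.20 that spans 0. NCAPH (chromosome 2, 96335787 to 96373845, plus strand), which encodes the kleisin of condensin I, averaged 85.1 CPM with a log2 fold change of 0.33 (1.26-fold, 1.18 to 1.35, adjusted p = 4.96e-10), the smallest of all 10 subunits. The interval of NCAPG minus NCAPH ran from 0.31 to 0.60 and that of NCAPD2 minus NCAPH from 0.26 to 0.52. Neither NCAPG nor NCAPD2 overlapped NCAPH in its own interval. The exons of NCAPG overlap those of LCORL on the other strand over 33.1% of their length (17.7 CPM, log2 fold change 0.49), and those of NCAPD2 overlap MRPL51 over 7.49% (147 CPM, log2 fold change -0.11). SMC4 shares 18.5% of its exon bases with TRIM59 (1.43 CPM) and 7.18% with IFT80 (21.3 CPM), and RAD21 shares 8.37% with UTP23 (49.9 CPM) and 5.83% with its antisense gene RAD21-AS1 (0.669 CPM), all on the other strand. As for STAG1, how far shared reads entered these values was not tested.

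SMC4 and SMC2, the ATPase pair shared by both condensins, lay between these values. SMC4 averaged 428 CPM with a log2 fold change of 0.58 (1.49-fold, 1.40 to 1.60, adjusted p = 7.66e-30 by edgeR's likelihood ratio test), and SMC2 averaged 202 CPM with one of 0.50 (1.41-fold, interval 0.41 to 0.59 in log2 units, adjusted p = 8.08e-26). Their difference of 0.08 had an interval from -0.05 to 0.21. They were in turn close to the cohesin ATPase SMC3, from which SMC4 differed by 0.01 (-0.15 to 0.17). Of the 45 pairs among the 10 subunits, 31 had an interval of the difference that excluded 0, with no adjustment over the pairs.

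**Figure D2:**
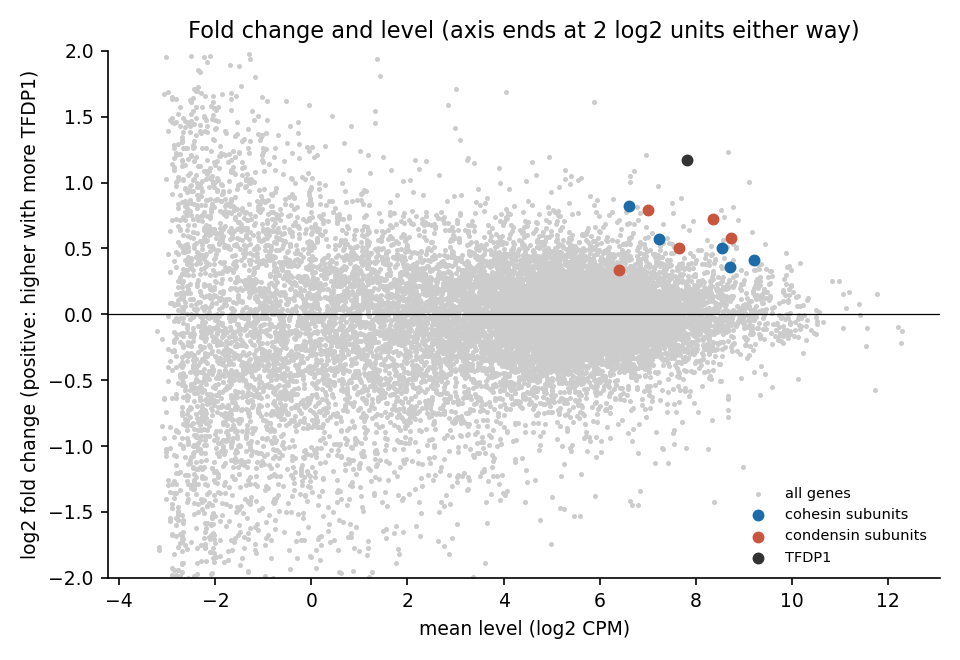
Log2 fold change (vertical axis) against mean level in log2 CPM (horizontal axis) for all genes in grey, the 5 cohesin genes in blue, the 5 condensin genes in red and TFDP1 in black. The subunits lie in the upper part of the well expressed genes, below TFDP1 at 1.17. The vertical axis stops at 2 log2 units, and the 259 genes beyond it are not drawn.

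Against the genes nearest to them in level the subunits ranked high. The log2 fold change of NCAPG exceeded that of 99.5% of its 200 nearest neighbours in level. SMC3, STAG1, SMC2 and NCAPD2 each exceeded 99.0% of theirs and SMC4 97.5%. The lowest of these ranks belonged to STAG2 at 90.5%, after NCAPH at 93.0%, RAD21 at 94.0% and SMC1A at 95.5%. After removal of the trends that fold changes showed with transcript length and GC content across the table, all 10 subunits were still called positive. STAG2 moved most in proportion, to 0.21, and NCAPD2 became the subunit with the largest value at 0.73, followed by STAG1 at 0.71 and NCAPG at 0.69. NCAPH was then no longer the smallest. It was at 0.365, level with SMC2 at 0.364 and above SMC1A at 0.32 and STAG2.

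Levels were compared between subunits per kilobase of exon, with no replicate error available for their order. The lengths include exon bases shared with genes on the other strand, as in NCAPG (33.1%), STAG1 (21.2%) and SMC4 (18.5% with TRIM59). How reads there were counted is not given, and the effect on the order was not tested. RAD21 was the highest at 60.3 CPM per kb and STAG1 the lowest at 12.5. SMC1A (56.5 CPM per kb), STAG2 (51.1), NCAPD2 (50.9) and SMC4 (50.6) formed a close group, followed by SMC3 at 35.1 and SMC2 at 31.2. NCAPG and NCAPH were at 26.0 CPM per kb each. With the length of the longest transcript in place of all exons, RAD21 (99.5) and STAG1 (16.2) remained the ends, SMC4 came second at 78.2, and NCAPH and NCAPG changed places. Within cohesin, STAG2 exceeded STAG1 by 4.10-fold per length of all exons and 4.28-fold per length of the longest transcript. Within condensin, SMC4 exceeded its partner SMC2 by 1.62-fold and 2.32-fold on the same scales.

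**Figure D3:**
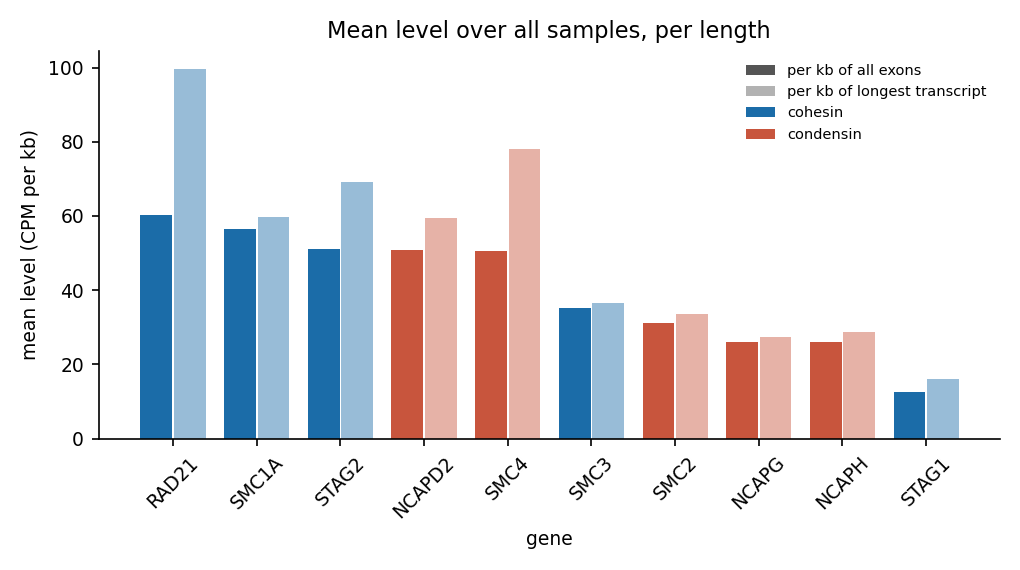
Mean level over all samples of each subunit gene in CPM per kb (vertical axis), per length of all annotated exons in full colour and of the longest transcript in pale colour, cohesin in blue and condensin in red. RAD21 is highest and STAG1 lowest on both scales, and the bars carry no error because values per replicate were not used.

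The promoter sequences of the subunits were also searched for short motifs, as a description with no test. RefSeq windows of 300 bases on GRCh38.p14, from 250 bases before to 50 after a transcription start, were found for 9 of the 10 subunits, all but RAD21, in 14 windows. The E2F letters searched were TTCCCGC, then TTGGCGC, then TTCGCGC, then TTGCCGC, the letters of the CHR, an element bound by the MuvB complexes at late cell cycle genes, were TTTGAA, and those of NF-Y, a factor common at such promoters, were CCAAT. Both strands were read. The following windows are shown because they belong to the subunits with the largest changes or to the gene with both E2F and CHR letters besides NCAPG. Also shown are windows of the cohesin gene with E2F letters closest to its start and of NCAPH, which had the smallest change before trend removal. Each is written 5′ to 3′ on the gene's strand, with E2F and CHR letters of either strand in capitals.
NCAPG, chr4:17810729-17811028, plus strand: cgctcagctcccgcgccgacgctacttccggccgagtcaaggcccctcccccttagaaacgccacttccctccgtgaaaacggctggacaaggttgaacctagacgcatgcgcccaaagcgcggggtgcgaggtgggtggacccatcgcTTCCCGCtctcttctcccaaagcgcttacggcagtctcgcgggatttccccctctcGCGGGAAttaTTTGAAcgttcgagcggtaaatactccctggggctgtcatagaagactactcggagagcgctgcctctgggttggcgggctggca
NCAPD2, chr12:6493852-6494151, plus strand: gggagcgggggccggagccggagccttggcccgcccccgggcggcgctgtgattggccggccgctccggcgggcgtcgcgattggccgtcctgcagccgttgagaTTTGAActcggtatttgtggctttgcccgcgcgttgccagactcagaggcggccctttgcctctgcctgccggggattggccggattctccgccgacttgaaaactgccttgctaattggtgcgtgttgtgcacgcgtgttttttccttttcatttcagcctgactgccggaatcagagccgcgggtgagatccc
SMC4, chr3:160399400-160399699, plus strand: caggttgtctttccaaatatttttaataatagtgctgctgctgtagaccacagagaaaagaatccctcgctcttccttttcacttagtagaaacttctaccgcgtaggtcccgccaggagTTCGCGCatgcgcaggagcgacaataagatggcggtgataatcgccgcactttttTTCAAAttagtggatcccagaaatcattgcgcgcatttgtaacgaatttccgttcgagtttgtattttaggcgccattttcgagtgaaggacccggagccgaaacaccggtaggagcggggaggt
STAG1, chr3:136752329-136752628, minus strand: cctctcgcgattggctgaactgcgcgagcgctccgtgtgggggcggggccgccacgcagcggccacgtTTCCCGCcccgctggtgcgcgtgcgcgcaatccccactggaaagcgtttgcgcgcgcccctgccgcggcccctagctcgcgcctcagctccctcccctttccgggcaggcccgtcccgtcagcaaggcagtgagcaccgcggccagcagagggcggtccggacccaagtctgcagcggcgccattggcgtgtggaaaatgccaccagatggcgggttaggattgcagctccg
SMC1A, chrX:53422605-53422904, minus strand: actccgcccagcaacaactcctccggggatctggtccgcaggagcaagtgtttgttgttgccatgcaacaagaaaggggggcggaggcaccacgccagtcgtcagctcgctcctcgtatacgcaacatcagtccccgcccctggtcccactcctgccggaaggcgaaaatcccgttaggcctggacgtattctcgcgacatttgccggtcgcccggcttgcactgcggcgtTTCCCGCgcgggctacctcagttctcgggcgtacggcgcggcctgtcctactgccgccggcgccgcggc
NCAPH, chr2:96335516-96335815, plus strand: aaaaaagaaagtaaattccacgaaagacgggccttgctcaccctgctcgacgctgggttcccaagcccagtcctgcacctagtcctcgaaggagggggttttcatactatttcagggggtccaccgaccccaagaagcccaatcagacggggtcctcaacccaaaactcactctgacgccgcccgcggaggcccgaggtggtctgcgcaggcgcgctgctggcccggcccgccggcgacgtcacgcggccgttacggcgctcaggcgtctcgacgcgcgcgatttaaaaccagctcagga

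NCAPG held E2F letters at positions -101 and -45 from the start, the second set on the reverse strand, and CHR letters at -35. NCAPD2 held no E2F letters but CHR letters at -145 and 4 reverse-strand NF-Y letters, and SMC4 held E2F letters at -130 and CHR letters at -75. STAG1 and SMC1A held E2F letters at -182 and -19. STAG2 held E2F letters in 1 of its 3 windows, and SMC3 and SMC2 each held CHR letters. SMC1A, SMC4 and SMC2 each had another window, from another start, with neither E2F nor CHR letters. Counted by window, 5 of 14 held E2F letters, against 13.0% of all windows and 21.6% of those of the level range. CHR letters were also in 5 of 14, against 15.2% and 9.65%. NCAPH held neither E2F nor CHR letters in its window. Counted by gene, 5 of 9 subunits held E2F letters, against 15.3% of all 27303 genes with a window and 28.0% of the genes of the subunits' level range. CHR letters were also found in 5 of 9, against 18.2% and 12.7%, and both in the same window in 2 of 9, NCAPG and SMC4, where 1.49% of all genes and 2.71% of those in the level range held both. NF-Y letters were found in 4 of 9, against 39.7% and 45.6%. These matches are letters only, and windows of different numbers per gene were searched. Binding was not measured.

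The genes that load, release, lock and cut cohesin were mostly called positive too. Of 14 such genes 12 passed on the positive side, 0 on the negative side, and 2 did not pass, the median being 0.33 in log2 units in the authors' deposited table. Over all genes 17.3% were called positive and 22.2% negative. ESCO2, the acetyltransferase that locks cohesin on replicated DNA in S phase, had the largest at 0.82 (1.77-fold), whereas the related ESCO1, which acts throughout the cycle, was at -0.05 (adjusted p = 0.585 by edgeR's likelihood ratio test). Of the loader pair, NIPBL was positive at 0.41 and MAU2 was at -0.15, just short of the threshold on the negative side (adjusted p = 0.0523), and it passed on that side under 3 of the alternatives. The cohesin regulators PDS5A (0.39) and PDS5B (0.44) were both positive, and WAPL, which opens the ring, was at 0.14 (adjusted p = 0.0388). With length and GC trends removed, WAPL was at 0.02 and no longer called (adjusted p = 0.771), and ESCO1 was called negative at -0.17 (0.0261). CTCF, the DNA-binding protein at which cohesin loops stop, was at 0.38, and the deacetylase HDAC8, which recycles SMC3, at 0.22, a call also lost without those trends (adjusted p = 0.241).

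The genes that guard or cut cohesin at anaphase had moderate values. The separase gene ESPL1 was at 0.32 and its inhibitor securin, encoded by PTTG1, at 0.35. Sororin, encoded by CDCA5, which holds WAPL off in G2, was at 0.13 with a level of 218 CPM. The shugoshin genes, listed as SGOL1 and SGOL2, were at 0.26 and 0.47 in the authors' deposited table. All of these passed the authors' threshold on the positive side. Over all genes 17.3% passed on that side and 22.2% on the negative side. The meiotic cohesin genes gave 0 calls among 3 measured of 4 listed, where 9550 of all 15794 genes were not called. REC8, the meiotic kleisin, was at 5.49 CPM with a log2 fold change of -0.28 (standard error 0.15, adjusted p = 0.155 by edgeR's likelihood ratio test), and its approximate interval of -0.57 to 0.02 lay below the value of every one of the 10 subunits. SMC1B and STAG3 were at 0.211 and 0.476 CPM with standard errors of 0.81 and 0.51 log2 units, so changes of the subunits' size were not detectable in SMC1B and STAG3.

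The subunits particular to condensin II were positive as well. NCAPD3 had a log2 fold change of 0.46, NCAPH2 one of 0.34 and NCAPG2 one of 0.30 in the authors' deposited table, and the condensin II regulator MCPH1 was not called at 0.07. NCAPG exceeded its condensin II counterpart NCAPG2 by 0.48 log2 units (0.35 to 0.62) and NCAPD2 exceeded NCAPD3 by 0.27 (0.14 to 0.40). The kleisins NCAPH and NCAPH2 differed by -0.01, with an interval from -0.14 to 0.12. The transcript ratio of condensin I to condensin II subunits therefore differed between the groups for both HEAT-repeat positions, and for the kleisin no difference was resolved.

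**Figure D4:**
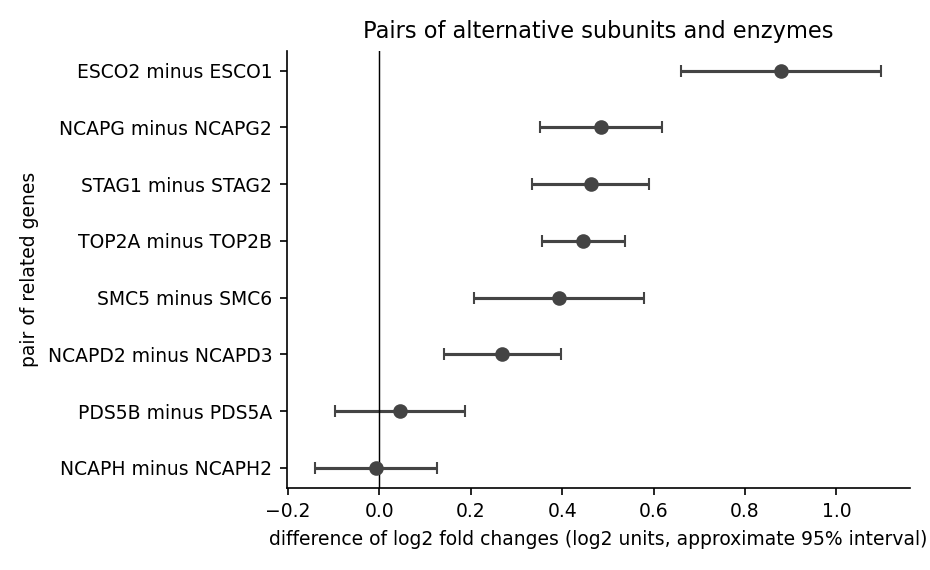
Difference of log2 fold changes between the members of 8 pairs of related genes (horizontal axis, log2 units), each the first gene minus the second, with approximate 95% intervals that take the errors as independent. In 6 pairs the interval lies above 0, and for NCAPH and NCAPH2 and for PDS5B and PDS5A it spans 0.

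Of 10 genes of the SMC5/6 complex and its relatives, which act in DNA repair and silencing, 6 passed on the positive side, 0 on the negative side and 4 did not pass, the median being 0.30. For this and the later counts of this paragraph, the shares over all genes were 17.3% positive and 22.2% negative. SMC5 was at 0.43, while SMC6, its obligate partner, was at 0.04 (adjusted p = 0.529 by edgeR's likelihood ratio test), and the interval of their difference ran from 0.21 to 0.58. SLF1, which helps to recruit the complex to damage, was at 0.54, the SUMO ligase subunit NSMCE2 at 0.34, and SMCHD1, an SMC-like silencing protein, at 0.37. The subunit genes NSMCE1 and NSMCE4A were at 0.27 and 0.20. Besides SMC6, the genes that did not pass were NSMCE3 (listed as NDNL2) at -0.15 (adjusted p = 0.177), SLF2 at 0.13 (0.112) and EID3 at 0.63 (0.369), the last at only 0.496 CPM. All 10 listed genes of mitotic chromosome structure were positive, with a median of 0.29. MKI67, the Ki-67 protein that coats mitotic chromosomes, had the largest value of any gene in these lists at a log2 fold change of 1.00, and TOP2A, the topoisomerase that works beside condensin, was at 0.62 against 0.17 for TOP2B, whose call was lost without the length and GC trends (adjusted p = 0.127). The motor gene KIF4A, a partner of condensin I, was at 0.46. The chromosomal passenger genes, whose kinase promotes condensin loading, lay lower, with INCENP at 0.34, BIRC5 at 0.29, CDCA8 at 0.26 and AURKB at 0.16. The remaining listed genes of mitotic chromosome structure, KIF22 and CDCA2, were at 0.29 and 0.22. In all, 31 of 41 measured related genes were positive and 0 negative, with a median of 0.29 against 0.54 for the 10 subunits.

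**Figure D5:**
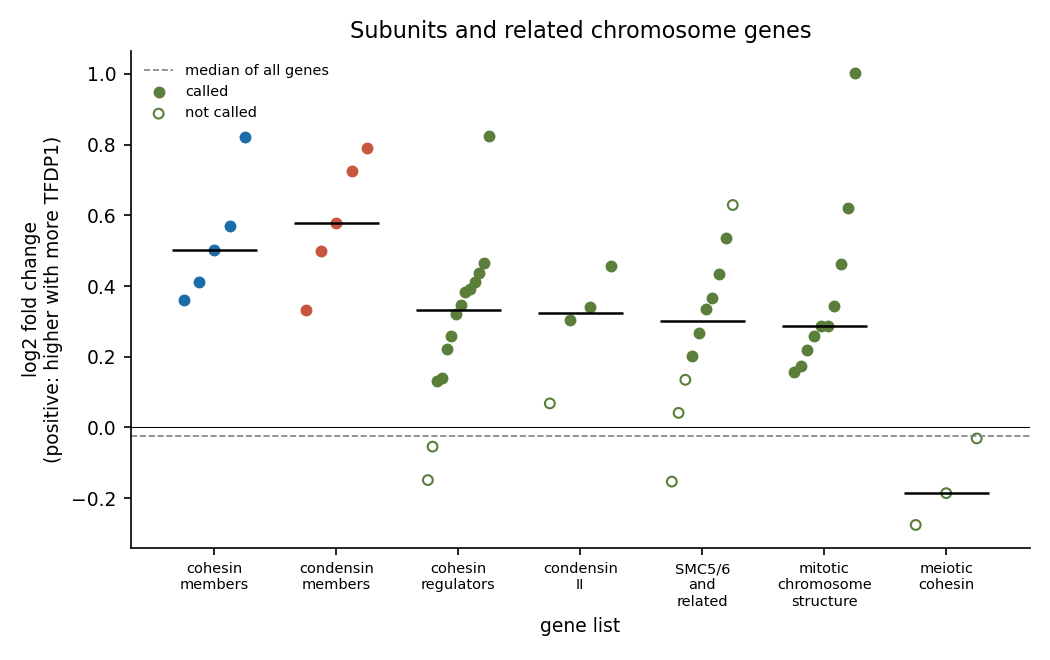
Log2 fold change (vertical axis) of the cohesin and condensin subunits and of 5 lists of related genes (horizontal axis), filled where called at the authors' adjusted p under 0.05 and open where not, with a black line at each median. The medians of 0.50 and 0.58 of the subunits lie above those of the related lists, which run from 0.33 down to -0.19.

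The eHAP line derives from a leukaemia line, and of 12 blood markers looked for 5 were in the table, 1 positive and 2 negative, with a summed mean level of 40.0 CPM. All 3 measured epithelial markers of 4 and all 3 measured fibroblast markers of 4 were negative, with median log2 fold changes of -2.94 and -1.36. Their summed mean levels were 53.4 and 26.4 CPM. Most of the epithelial sum was KRT18, at 40.0 CPM with a log2 fold change of only -0.52. KRT8 was at 12.8 CPM with -2.94, and EPCAM at 0.515 CPM with -4.18. The shares called over all genes were 17.3% positive and 22.2% negative. The part of these markers in the values of the subunits was not tested. By comparison the 10 subunits summed to 2804 CPM.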

How the data were processed

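The deposited table of 1 comparison was analysed. Its log2 fold changes and log2 CPM were computed by the authors. The processing notes of the submitters list Trimmomatic, HISAT2, featureCounts and edgeR, with the builds hg38 and dm6 and no versions. The likelihood ratio is a score as the authors deposited it, and the authors' p-value and FDR columns stand beside it, per the file headers. The sources used here do not give the library scaling (human or spike-in reads), and library depths are unknown. No per-sample column was in hand, so p-values measure only the spread that the authors' test saw between replicates.

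The members and lists were chosen with earlier results of these data known. The text names all 10 subunits, TFDP1 and genes of 5 lists of related genes, whatever their p. Calls use the authors' FDR under 0.05, and no set was tested. Exon lengths and overlaps were taken by symbol from GENCODE 29 (GRCh38), and promoters from RefSeq, matched for 12156 of the 15794 genes. Python 3.11.15, pandas 2.3.3, numpy 2.4.6, scipy 1.17.1, statsmodels 0.14.6 and matplotlib 3.10.9 were used. An approximate standard error was the absolute log2 fold change over the root of the likelihood ratio. How close it comes to the standard error of the authors' fit was not tested, and all intervals rest on it. The alternatives were a stricter FDR, p adjustment over the rows in hand, a Bonferroni adjustment, 2 re-centrings, a level filter, a minimum change of 1.2-fold, removal of lowess trends (span 0.3) on length and GC for the 14777 genes with a transcript, and, chosen after seeing the data, standard errors no smaller than those of genes at the same level.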

Additional observations from a re-analysis of the deposited data

How the results depend on the processing

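All 10 subunits kept a positive call under each of the 9 alternatives, with log2 fold changes from 0.21 to 0.90 and adjusted p of at most 1.42e-06. Related genes called positive went to 20 with a Bonferroni adjustment, against 31. Related genes called negative went from 0 to 1 with adjustment over the rows in hand, in genes no lower than the median level and with raised standard errors, which is MAU2 each time, and to 1 with length and GC trends removed, which is ESCO1 (-0.17, adjusted p = 0.0261). Over all genes, 2738 positive and 3506 negative calls became 1030 and 1434 with a Bonferroni adjustment. Positive calls became 1642 at a minimum of 1.2-fold. Negative calls were 2212 in genes no lower than the median level, a set that held only 7897 of the 15794 genes. Re-centring on the median ribosomal protein gene, at -0.08, gave 4226 positive calls and a positive share of 62.5%, against 43.9%. The causes were not tested. No paired analysis was possible because the table holds no values per replicate, and for the same reason no replicate could be left out. Depth per library is unknown.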
